A study of Mus musculus with 6 samples.

Results

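The genes of sterol and fatty acid synthesis were followed across 6 RNA-seq libraries of mouse bone marrow progenitors that carried mutants of CSF3R, the receptor for the cytokine G-CSF, which drives neutrophil production. The group held 31 genes, chosen by name from 23417 rows with a gene symbol, and 31 of 31 were in the table and passed the filter on low values. By role they fell into 7 genes of the early sterol steps up to squalene, 9 genes of the later steps, 6 genes that regulate the SREBP factors or carry sterol, 2 genes of acetyl-CoA supply and 7 genes of fatty acid synthesis and desaturation.

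Kit-positive cells came from C57BL/6 mice, were selected with CD117 microbeads and received the cytokines FLT3, IL-6, IL-3 and mSCF. They were transduced with retrovirus on retronectin, sorted by flow cytometry and kept overnight in the same cytokines, and 1 TruSeq Stranded mRNA library was made per construct. The constructs were a control vector, the tail truncations W791 and Q741, the membrane-proximal mutant T618I, and T618I together with either truncation, written T618I/Q741 and T618I/W791. According to the series' design, the proximal and double mutants are leukemogenic and the truncations are not, and the question was how the expression of the classes differs. The classes were therefore T618I-containing (n = 3), truncation (n = 2) and vector (n = 1). No construct carried an unmutated receptor, so a difference from vector joins the presence of a receptor with its mutation. The labels name no separate animals or cultures, and each SD, SE and p below measures the spread between constructs of a class, which may be technical.

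Cholesterol is built from acetyl-CoA through mevalonate, isoprenoid units and squalene, and fatty acids are built from the same acetyl-CoA. The factors SREBP-1 and SREBP-2 are held in the endoplasmic reticulum by the Insig proteins while sterol is plentiful, and Scap escorts them to the Golgi for cleavage when sterol is scarce. SREBP-2 is best known for driving sterol genes and SREBP-1 for driving fatty acid genes, both together with the factors NF-Y and Sp1, and dividing blood progenitors use the products for new membrane.

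Values are FPKM, fragments counted for each gene relative to transcript length and library depth, which can be compared between genes. Differences are in log2(FPKM + 1). Depth, approximated from the steps between low values, was 43.0 M fragments for vector and 20.3 to 25.9 M for the others, so that a member's value rested on at least 336 fragments. Markers of Kit-positive progenitors summed to 327 to 383 FPKM in the libraries other than the double mutants, against 258 in T618I/Q741 and 214 in T618I/W791. Kit itself was at 15.1 and 12.6 FPKM there against 23.3 to 34.5 elsewhere, and Cd34, Gata2 and Flt3 were also lower in both double mutants than elsewhere. The rest of that list differed: Myb was as high in T618I/W791 (52.6 FPKM) as with vector (52.5), and Ptprc was highest in T618I/Q741 (130 FPKM). The 9 neutrophil markers summed to 2594, 3759.7 and 3404 FPKM in vector, W791 and Q741, and to 19781 FPKM in T618I, 35767 in T618I/Q741 and 27013 in T618I/W791. Most of that is S100a8 and S100a9: the other markers summed to 549, 861 and 819.8 FPKM in vector, W791 and Q741 and to 1521, 6171 and 2229 in the same order of T618I-containing libraries, and Ltf (23.3 FPKM) and Camp (4.25 FPKM) were lower in T618I than in both truncations. The 8 erythroid markers summed to 93.7 to 96.1 FPKM without T618I and to 213, 219 and 748 with it, and the 5 megakaryocyte markers to 262 to 686 and to 2055, 1071 and 1087. The 6 mast cell and basophil markers summed to 1707 to 1901 FPKM outside the double mutants and to 532 and 541 in them. The sum in T618I joins opposite differences from vector and the truncations. Prss34 (78.7 FPKM against 363 to 393) and Mcpt8 (386 against 614 to 678) were lower there, as were Hdc and Ms4a2. Cpa3 (959 FPKM against 557 to 684) and Fcer1a (210 against 91.9 to 130) were higher there. The receptor row, Csf3r, was at 53.1 FPKM with vector and 38.8 to 95.9 FPKM with the mutants, so it did not separate them, and whether reads of the introduced receptor were counted there is not stated. All T618I-containing values lay above both truncations for 7 of 9 neutrophil, 7 of 8 erythroid and 4 of 5 megakaryocyte markers. They lay below both for 6 of 6 monocyte, 4 of 6 mast cell and 2 of 6 progenitor markers. Over all genes tested, 9.22% lay above both truncations and 21.1% below both. The part of these cells in the results was not tested. In such bulk RNA, fewer cells of a type and less RNA per cell cannot be told apart.

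None of the 31 genes passed the adjusted threshold of 0.05 in limma's test between T618I-containing and truncation libraries, where 0.179% of the 11188 genes tested were called higher and 0.0179% lower. The early sterol genes were nevertheless higher at the median, by 0.36, while the median over all genes was -0.07. The later sterol genes had a median of 0.05, the regulators -0.13, the acetyl-CoA genes 0.01 and the fatty acid genes -0.07. With all 31 genes together the median was -0.02. At an unadjusted p below 0.05 there was 1 member, Fdps, which was higher; 4.16% of all genes were higher and 4.86% lower by that rule.

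Of the roles, the early sterol steps held the most genes in the order vector, truncations, T618I-containing. Mvd, Idi1, Fdps and Fdft1, which encode mevalonate diphosphate decarboxylase, isopentenyl diphosphate isomerase, farnesyl diphosphate synthase and squalene synthase, were lowest with vector, higher in both truncations and higher again in each T618I-containing library. In all, 6 of 31 members had that order, against 3.75% of all genes, and the other two were Nsdhl and Stard4. In the GENCODE M21 annotation of mm10 the genes are Mvd (ENSMUSG00000006517.5) at chr8:122433601-122443422, Idi1 (ENSMUSG00000058258.14) at chr13:8885501-8892451, Fdps (ENSMUSG00000059743.12) at chr3:89093588-89101959 and Fdft1 (ENSMUSG00000021273.10) at chr14:63145150-63179578.

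Fdps, which makes the farnesyl unit that feeds sterols and protein prenylation, was at 186 FPKM in the vector library, at 233 and 219 in the truncations W791 and Q741, and at 308, 277 and 361 in T618I, T618I/Q741 and T618I/W791. The 3 classes did not overlap. T618I-containing libraries had a mean of 315 ± 42.6 FPKM (SD, n = 3) and truncations 226 ± 10.1 (SD, n = 2), a log2 difference of 0.47 ± 0.16 (SE; limma, unadjusted p = 0.0298, adjusted p = 0.485). Against vector the difference was 0.75 ± 0.20 (SE; limma, adjusted p = 0.425).

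Idi1, which interconverts the isoprenoid building units, was at 53.6 FPKM in the vector library, at 68.5 and 65.6 in the truncations W791 and Q741, and at 97.0, 79.6 and 134 in T618I, T618I/Q741 and T618I/W791. It had the widest range among the members, 2.49 times from vector to T618I/W791. The difference between T618I-containing and truncation libraries was 0.59 ± 0.24 (SE; limma, adjusted p = 0.564), and that from vector was 0.90 ± 0.30 (SE; limma, adjusted p = 0.494).

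Mvd, whose enzyme yields the first isoprenoid unit, was at 32.6 FPKM in the vector library, at 45.0 and 40.8 in the truncations W791 and Q741, and at 48.5, 68.3 and 54.5 in T618I, T618I/Q741 and T618I/W791. Its highest value was in T618I/Q741, which was the highest library for 1 member here and for 6 with median-ratio scaling. Its class difference was 0.39 ± 0.19 (SE; limma, adjusted p = 0.638) and its difference from vector 0.78 ± 0.24 (SE; limma, adjusted p = 0.454). Fdft1, whose enzyme commits farnesyl units to sterol, was at 23.2 FPKM in the vector library, at 27.6 and 26.5 in the truncations W791 and Q741, and at 32.0, 33.3 and 40.1 in T618I, T618I/Q741 and T618I/W791. Its class values again did not overlap, at a difference of 0.36 ± 0.15 (SE; limma, adjusted p = 0.586) and, from vector, of 0.57 ± 0.19 (SE; limma, adjusted p = 0.501).

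The first gene of the pathway in the list, Hmgcs1, did not share that order. Hmgcs1, which makes HMG-CoA, was at 90.4 FPKM in the vector library, at 113 and 108 in the truncations W791 and Q741, and at 109, 94.9 and 118 in T618I, T618I/Q741 and T618I/W791. Vector was the lowest library, but the T618I-containing and truncation values overlapped, at a difference of -0.05 ± 0.15 (SE; limma, adjusted p = 0.994), whose sign turns to 0.03 with median-ratio scaling. Mvk and Pmvk, the kinases that phosphorylate mevalonate, lay between 12.9 and 17.3 FPKM and between 35.5 and 54.1 FPKM, each lowest with vector, with class differences of 0.08 and 0.12. The summed value of the 7 early genes was 434 FPKM in the vector library, 552 and 517 in the truncations W791 and Q741, and 667, 620.1 and 765 in T618I, T618I/Q741 and T618I/W791.

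**Figure D1:**
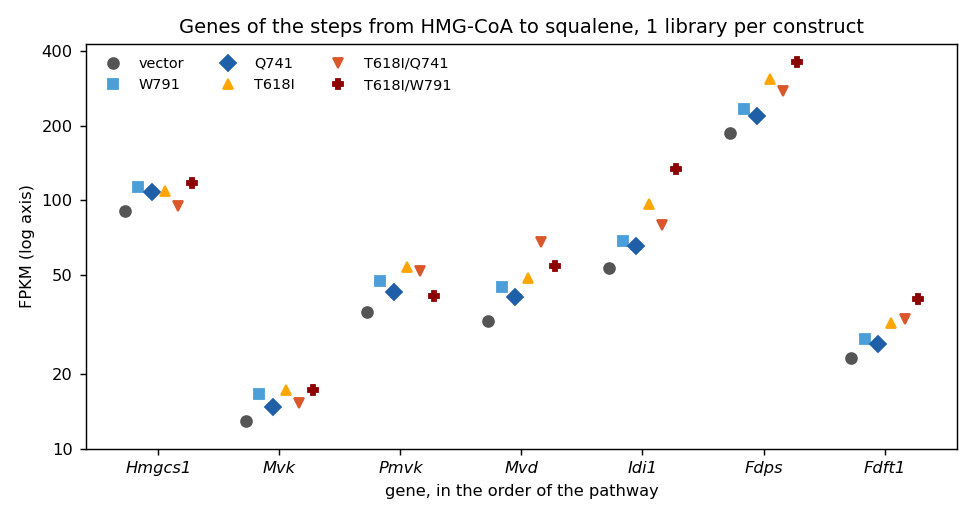
FPKM (log axis) of the 7 genes from HMG-CoA to squalene, in pathway order, with 1 point per library. Vector is the lowest point for each gene, and for Mvd, Idi1, Fdps and Fdft1 the 3 T618I-containing points lie above both truncations.

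The promoters of 3 early genes are shown because they carry NF-Y boxes, which all 13 sterol enzymes with a window had. They are RefSeq windows of build GRCm38.p6, from 250 bases before to 50 bases after a RefSeq start site, written 5′ to 3′ on the gene's strand. Capitals mark NF-Y boxes (CCAAT, or ATTGG on the other strand) and, in Hmgcs1, a sterol response element core (TCACNCCAC, or GTGGNGTGA on the other strand).

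Hmgcs1 promoter, chr13:119690101-119690400, plus strand: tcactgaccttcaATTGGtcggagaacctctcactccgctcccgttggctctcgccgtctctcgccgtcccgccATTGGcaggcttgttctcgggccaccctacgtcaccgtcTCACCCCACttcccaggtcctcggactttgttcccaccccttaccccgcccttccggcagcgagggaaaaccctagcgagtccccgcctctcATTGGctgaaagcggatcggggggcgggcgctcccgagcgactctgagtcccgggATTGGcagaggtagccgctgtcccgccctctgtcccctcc
Mvd promoter, chr8:122443373-122443672, minus strand: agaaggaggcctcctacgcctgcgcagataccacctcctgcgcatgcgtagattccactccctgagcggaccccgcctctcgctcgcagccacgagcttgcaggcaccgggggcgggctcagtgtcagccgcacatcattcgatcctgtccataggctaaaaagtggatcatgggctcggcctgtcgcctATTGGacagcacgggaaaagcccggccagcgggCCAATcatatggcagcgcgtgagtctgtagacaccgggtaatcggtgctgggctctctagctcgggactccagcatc
Idi1 promoter, chr13:8885356-8885655, plus strand: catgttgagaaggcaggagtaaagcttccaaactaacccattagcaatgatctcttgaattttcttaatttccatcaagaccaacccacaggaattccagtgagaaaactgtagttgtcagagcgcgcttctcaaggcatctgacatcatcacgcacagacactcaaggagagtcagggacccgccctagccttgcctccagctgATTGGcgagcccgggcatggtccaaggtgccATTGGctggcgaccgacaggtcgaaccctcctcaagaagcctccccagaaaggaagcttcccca

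Among the 31 members 24 matched a window by symbol. An NF-Y box was in 19 of the 24, against 43.1% of the 8505 tested genes with a window. All 13 sterol enzymes with a window had one in at least 1 window (13 of their 16 windows), 5 of 5 early and 8 of 8 late, as did 4 of 5 regulators, 1 of 2 acetyl-CoA genes and 1 of 4 fatty acid genes, the last being Fasn. In Mvd the boxes began 60 and 27 bases before the RefSeq start, and in Idi1 45 and 14 bases before it. The GENCODE gene Idi1 given above begins upstream of that RefSeq start, so its boxes lie inside the GENCODE gene. The sterol response element core was in 1 of 24 members, Hmgcs1, where it began 137 bases before the start, and in 1.36% of the tested genes. Only exact matches inside these windows were counted. Other forms of the element, or sites elsewhere, would be missed, so a member without a match may still have one. The E-box type TCACGTGA was in 0 of 24 members and 2.38% of tested genes, and the Sp1 box (GGGCGG or CCGCCC) in 20 of 24 and 69.1%. Of the 13 sterol enzymes 12 had an Sp1 box, so the NF-Y box stood out from it by 1 gene. An NF-Y box read as ATTGG can share its last letters with an Sp1 box. Hmgcs1 held NF-Y boxes too and had another order of libraries than Mvd and Idi1. The part of these boxes in the order of libraries was not tested.

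The late genes differed more between the double mutants, which are 1 library each, than between the class means. Among the early genes the same held for Idi1 (log2 difference -0.74 against 0.59), Hmgcs1 (-0.31 against -0.05), Mvk and Pmvk. It did not hold for Mvd, Fdps and Fdft1. Sqle, which encodes squalene epoxidase, was at 57.6 FPKM in the vector library, at 69.5 and 66.5 in the truncations W791 and Q741, and at 74.5, 54.3 and 88.4 in T618I, T618I/Q741 and T618I/W791. T618I/Q741 was the lowest library and T618I/W791 the highest, and the class difference was 0.06 ± 0.23 (SE; limma, adjusted p = 0.995). Lss, which encodes lanosterol synthase and closes the sterol rings, was at 22.2 FPKM in the vector library, at 28.8 and 26.0 in the truncations W791 and Q741, and at 33.2, 22.9 and 42.1 in T618I, T618I/Q741 and T618I/W791. T618I/Q741 lay below both truncations, so that the class values overlapped (difference 0.21 ± 0.27, SE; limma, adjusted p = 0.942). Cyp51, which encodes lanosterol demethylase, was at 44.8 FPKM in the vector library, at 55.8 and 52.2 in the truncations W791 and Q741, and at 56.0, 37.9 and 75.4 in T618I, T618I/Q741 and T618I/W791. Here too the double mutants were the lowest and the highest libraries, with a class difference of 0.01 ± 0.30 (SE; limma, adjusted p = 0.999).

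The other 6 late genes were less alike. Nsdhl, a sterol dehydrogenase of the demethylation step, was the late gene whose T618I-containing values (30.0 to 38.5 FPKM) all lay above the truncations (27.4 and 28.3), at a difference of 0.27 ± 0.16 (SE; limma, adjusted p = 0.738). Hsd17b7, the ketoreductase of the same step, was at 7.26 FPKM with vector and 16.7 with T618I/W791, and at 8.36 to 10.7 in the other libraries. Sc5d, the lathosterol desaturase, ranged from 32.3 FPKM with vector to 46.6 with T618I/W791. Ebp, the sterol isomerase, and Dhcr7, which makes cholesterol in the last step, were both lowest in T618I/Q741, at 29.1 and 22.8 FPKM. Tm7sf2, a sterol reductase, went the other way and was lowest in T618I/W791, at 10.5 FPKM against 12.8 to 15.3 elsewhere. The 9 genes summed to 271 FPKM in the vector library, 319.9 and 307 in the truncations W791 and Q741, and 337, 258 and 395 in T618I, T618I/Q741 and T618I/W791.

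The regulators other than Stard4 did not have the order of libraries of Mvd, Idi1, Fdps and Fdft1. Srebf2, which encodes SREBP-2, was at 83.9 FPKM in the vector library, at 88.8 and 81.8 in the truncations W791 and Q741, and at 82.5, 79.4 and 72.7 in T618I, T618I/Q741 and T618I/W791. It varied least of the regulators in ratio, 1.22 times, with a class difference of -0.12 ± 0.14 (SE; limma, adjusted p = 0.924). Srebf1, which encodes SREBP-1, was at 48.0 FPKM in the vector library, at 49.3 and 41.8 in the truncations W791 and Q741, and at 43.3, 41.2 and 30.7 in T618I, T618I/Q741 and T618I/W791. All T618I-containing values were below vector, and T618I/W791 was the lowest library for both genes; the class difference of Srebf1 was -0.25 ± 0.20 (SE; limma, adjusted p = 0.849). FPKM of a gene sums its transcripts, so the levels of the SREBP-1a and SREBP-1c forms are not separated, and transcript levels do not measure cleavage of the factors.

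Scap was at 14.5 FPKM in the vector library, at 13.6 and 12.4 in the truncations W791 and Q741, and at 12.9, 8.86 and 14.3 in T618I, T618I/Q741 and T618I/W791. The low value was that of T618I/Q741 (class difference -0.13 ± 0.22, SE; limma, adjusted p = 0.975). Insig1, itself a target of the SREBP factors, was at 68.6 FPKM in the vector library, at 82.5 and 84.3 in the truncations W791 and Q741, and at 81.5, 56.6 and 79.4 in T618I, T618I/Q741 and T618I/W791. Its T618I-containing values were all below both truncations, T618I by a small margin, at a difference of -0.22 ± 0.20 (SE; limma, adjusted p = 0.896). Insig2 was at 6.56 FPKM in the vector library, at 7.66 and 8.09 in the truncations W791 and Q741, and at 8.04, 7.66 and 7.44 in T618I, T618I/Q741 and T618I/W791, the lowest mean level of the members. Vector was its lowest library and the 5 others lay close together, at a class difference of -0.03 ± 0.12 (SE; limma, adjusted p = 0.998) that turns to 0.04 with median-ratio scaling. Stard4, which carries sterol between membranes, was at 44.8 FPKM in T618I, 38.3 in T618I/Q741 and 46.4 in T618I/W791, above 36.0 and 37.7 in the truncations and 32.0 with vector (class difference 0.22 ± 0.15, SE; limma, adjusted p = 0.801).

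Of the acetyl-CoA genes, Acly, which encodes ATP-citrate lyase, was at 79.4 FPKM in the vector library, at 89.2 and 85.7 in the truncations W791 and Q741, and at 84.1, 91.7 and 97.1 in T618I, T618I/Q741 and T618I/W791. Vector was again lowest and the classes overlapped, at a difference of 0.05 ± 0.14 (SE; limma, adjusted p = 0.994). Acat2, the cytosolic thiolase, was at 22.1 to 23.4 FPKM in the 4 libraries other than the double mutants, at 15.4 with T618I/Q741 and at 32.6 with T618I/W791.

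No fatty acid gene had a higher value in each T618I-containing library than in both truncations. Acaca, which encodes acetyl-CoA carboxylase, was at 19.0 FPKM in the vector library, at 19.5 and 18.0 in the truncations W791 and Q741, and at 19.3, 14.4 and 20.8 in T618I, T618I/Q741 and T618I/W791 (class difference -0.06 ± 0.19, SE; limma, adjusted p = 0.994; 0.01 with median-ratio scaling). Fasn, which encodes fatty acid synthase, was at 52.9 FPKM in the vector library, at 57.7 and 50.6 in the truncations W791 and Q741, and at 55.0, 37.8 and 57.0 in T618I, T618I/Q741 and T618I/W791 (class difference -0.13 ± 0.22, SE; limma, adjusted p = 0.971). In both genes T618I/Q741 stood below the 5 other libraries, which were close together.

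The stearoyl-CoA desaturases had another pattern, with T618I/W791 lowest. Scd2 had the highest level of the 31 genes and was at 455 FPKM in the vector library, at 476 and 414 in the truncations W791 and Q741, and at 472, 458 and 348 in T618I, T618I/Q741 and T618I/W791 (class difference -0.07 ± 0.19, SE; limma, adjusted p = 0.994; 0.01 with median-ratio scaling). Scd1 was at 48.8 FPKM in the vector library, at 43.9 and 30.7 in the truncations W791 and Q741, and at 60.2, 46.7 and 30.1 in T618I, T618I/Q741 and T618I/W791. Q741 and T618I/W791 were the low libraries of Scd1, so that the classes overlapped throughout (0.25 ± 0.33, SE; limma, adjusted p = 0.944). Fads1, the delta-5 desaturase of polyunsaturated fatty acids, was below both truncations in each T618I-containing library (43.5 to 55.8 against 59.0 and 62.0 FPKM; difference -0.28 ± 0.16, SE; limma, adjusted p = 0.720). Fads2, the delta-6 desaturase, ranged from 78.2 FPKM in T618I/Q741 to 132 in T618I, and Elovl6, which lengthens palmitate, from 9.64 in T618I/Q741 to 23.7 in T618I/W791.

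Counted over all members, 6 of 31 had every T618I-containing value above both truncations, against 9.22% of all genes, and 2 of 31, Insig1 and Fads1, had every value below, against 21.1%. The 6 were Mvd, Idi1, Fdps, Fdft1, Nsdhl and Stard4, so that 4 of 7 early genes, 1 of 9 late genes, 1 of 6 regulators and 0 of 7 fatty acid genes were among them.

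Against vector, none of the 31 genes passed the adjusted threshold, with 0.134% of all genes called higher and 0.0268% lower in T618I-containing libraries. At an unadjusted p below 0.05 there were 4 members, Mvd, Idi1, Fdps and Fdft1, all higher, where 3.38% of all genes were higher and 5.13% lower. The comparison uses the same T618I-containing libraries as the one with the truncations, and the vector class is 1 library assumed to vary like the others. Median differences from vector were 0.57 for the early genes, 0.30 for the late genes, -0.02 for the regulators, 0.12 for acetyl-CoA supply and -0.11 for the fatty acid genes, beside -0.08 over all genes.

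The truncations alone were also above vector for most sterol genes, by small amounts. Both truncations were above vector in 21 of 31 members, against 33.0% of all genes, and both below in 2 of 31, Scap and Scd1, against 41.4%. The 21 held 7 of 7 early and 8 of 9 late genes. The median difference was 0.29 for the early genes and 0.23 for the late genes, with -0.02 over all genes, and limma called 0 members and 0 of all genes; 0 members and 0.241% of all genes were higher at an unadjusted p below 0.05, and 0.411% of all genes were lower. All 5 libraries with a receptor mutant were above vector in 14 of 31 members, 7 of 7 early and 4 of 9 late genes among them, against 9.06% of all genes. Vector was the lowest of the 6 libraries for 14 members, against 9.12% of all genes, and for 15 with median-ratio scaling and 12 with scaling to a common sum. For single truncations no member was 2-fold apart from vector, where 0.152% of all genes were higher and 0.822% lower with Q741, and 0.268% and 0.304% with W791. Vector was the most deeply sequenced library and the only one of its class, and the part of that library in the result was not tested.

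**Figure D2:**
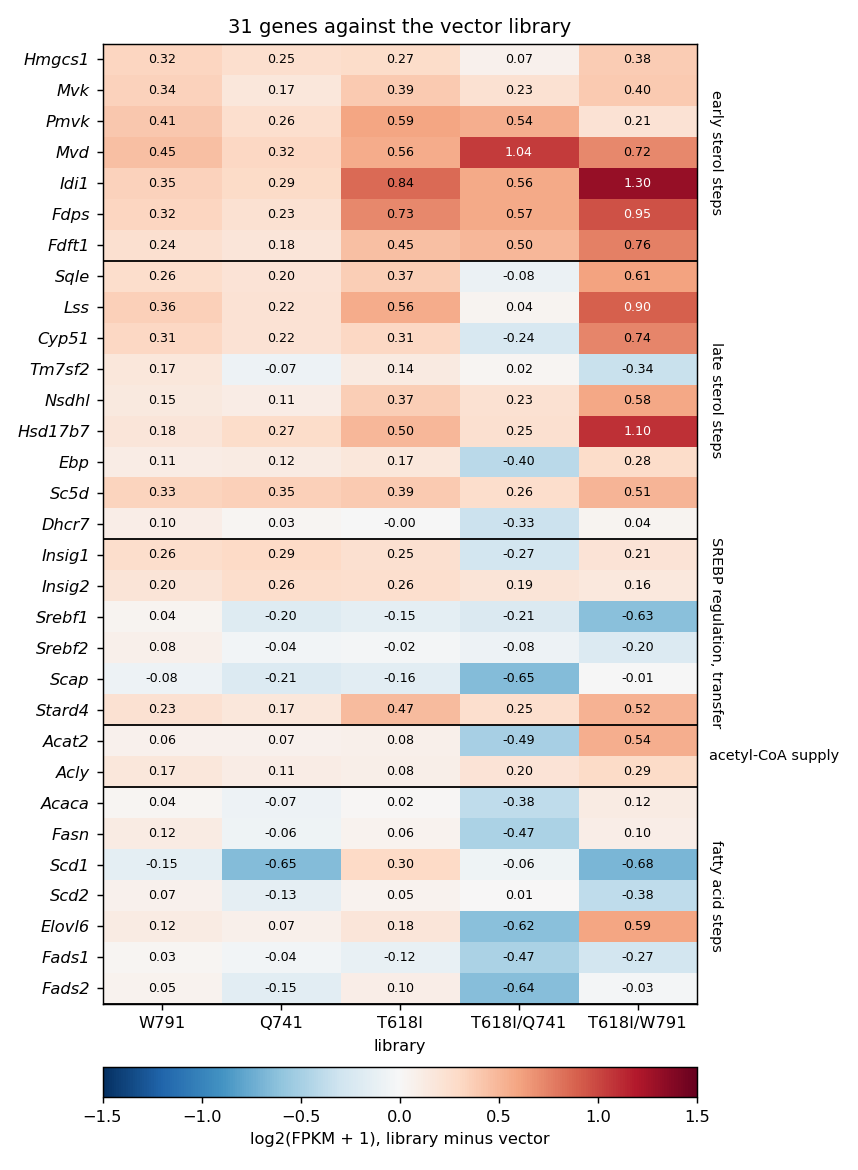
Difference of log2(FPKM + 1) between each of the 5 receptor libraries and vector for the 31 genes, grouped by role, with the value written in each cell and coloured from blue (lower) to red (higher). The 7 early sterol genes are positive in every column, and in the T618I/Q741 column 1 of 7 fatty acid genes is positive.

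T618I alone was above vector in 26 of 31 members, against 38.3% of all genes, with a member median of 0.26 beside -0.07 over all genes. The early median was 0.56, the late 0.37 and the fatty acid median 0.06. No member was 2-fold or more apart in that pair of libraries, where 2.73% of all genes were higher and 1.27% lower by that much. Pairs of single libraries have no replicate check, so these are descriptions. In the double mutants, Mvd was 2-fold or more above vector with T618I/Q741 (1.04), where 4.39% of all genes were that much higher and 2.99% lower. With T618I/W791, Idi1 (1.30) and Hsd17b7 (1.10) were, where 3.15% of all genes were higher and 5.6% lower.

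When T618I was added to a truncation, the median of the early genes was above 0 with either tail, while that of the late genes changed sign. From W791 to T618I/W791 the median was 0.27 for the early, 0.34 for the late and -0.09 for the fatty acid genes, with -0.00 over all genes. From Q741 to T618I/Q741 it was 0.28, -0.18 and -0.41 in the same order, with -0.16 over all genes. In each pair 6 of 7 early genes were above 0, against 49.7% of all genes with W791 and 34.5% with Q741. Pmvk was the exception with W791 (-0.20) and Hmgcs1 with Q741 (-0.18). No member was 2-fold apart in either pair, where 4.74% of all genes were higher and 1.89% lower with Q741, and 2.34% and 4.26% with W791.

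Among the early genes the size of the difference varied with the tail. Idi1 was higher by 0.84 with T618I over vector, by 0.28 with T618I/Q741 over Q741 and by 0.95 with T618I/W791 over W791. Fdps followed with 0.73, 0.34 and 0.63, and Fdft1 with 0.45, 0.32 and 0.52, in the same order of pairs. Mvd had its larger difference with Q741, at 0.56, 0.73 and 0.27.

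**Figure D3:**
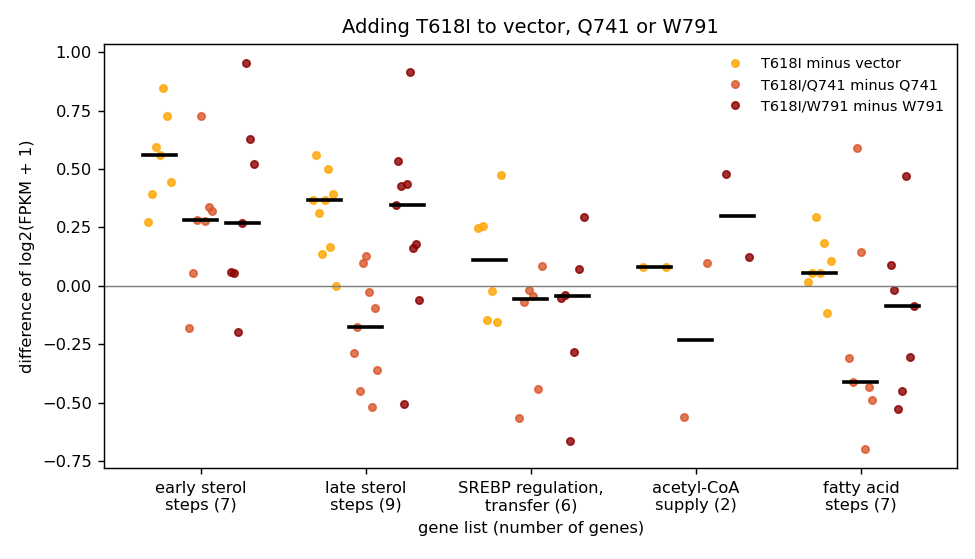
Difference of log2(FPKM + 1) on adding T618I to vector, Q741 or W791, with 1 point per gene and a black bar at the median of each role. The medians of the early sterol genes are 0.56, 0.28 and 0.27, while those of the late genes are 0.37, -0.18 and 0.34.

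At the member median, the double mutants differed from each other more than the libraries of any other pair compared. T618I/Q741 was below T618I/W791 by 0.35 at the member median, beside -0.12 over all genes. Above 0 were 8 of 31 members, against 41.9% of all genes. The medians were -0.26 for the early genes, -0.67 for the late genes, -0.12 for the regulators, -0.56 for acetyl-CoA supply and -0.50 for the fatty acid genes. Acat2 (-1.03) and Elovl6 (-1.21) were 2-fold or more lower, 2 of 31 where 7.58% of all genes were lower and 5.88% higher by that much; with median-ratio scaling 1 member was. Next came Cyp51 (-0.97), Lss (-0.85), Hsd17b7 (-0.85) and Idi1 (-0.74), which were inside the 2-fold line. The members higher in T618I/Q741 included Scd1 (0.62), Srebf1 (0.41), Scd2 (0.39) and Tm7sf2 (0.36).

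T618I/Q741 was the lowest of the 6 libraries for 12 members, against 44.9% of all genes, and for 11, against 32.7%, with median-ratio scaling. T618I/W791 was the highest library for 17, against 33.7%. Without T618I, Q741 and W791 differed little: the member median was -0.07 beside -0.01 over all genes, and the largest member difference was that of Scd1, at -0.50. No member was 2-fold apart in that pair, with 0.0447% of all genes higher and 0.67% lower in Q741. Adding the Q741 truncation to T618I gave a member median of -0.25 beside -0.13 over all genes. Above 0 were 3 of 31 members, Mvd (0.48), Acly (0.12) and Fdft1 (0.06), against 35.3% of all genes. Adding W791 to T618I gave 0.11 beside 0.02, with 21 of 31 above 0, against 52.5% of all genes. No member was 2-fold apart on adding either truncation, where 1.99% of all genes were higher and 1.47% lower with Q741, and 1.0% and 3.09% with W791.

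Genes of dividing cells were also lower in T618I/Q741 than in T618I/W791. The 10 genes of that list, among them Mcm2 and Cdk1, summed to 456 FPKM in T618I/Q741 and 1059 in T618I/W791, and to 699.7 to 764 in the other libraries. Higher in T618I/Q741 were 0 of 10, against 41.9% of all genes, at a median of -1.18. The neutrophil markers were highest in T618I/Q741, and the 6 monocyte markers summed to 157 FPKM in T618I/W791 against 325 in T618I/Q741. No marker in these lists was listed at 0 in any library. The part of cell division and of cell mixture in the difference between the double mutants was not tested. Between the classes the dividing-cell genes had a median of -0.12 beside -0.07 over all genes. Of these 10 genes 4 were above 0, against 3880 of all 11188 genes. Free of overlap were 0 of 10, where 9.22% of all genes lay above both truncations and 21.1% below.

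**Figure D4:**
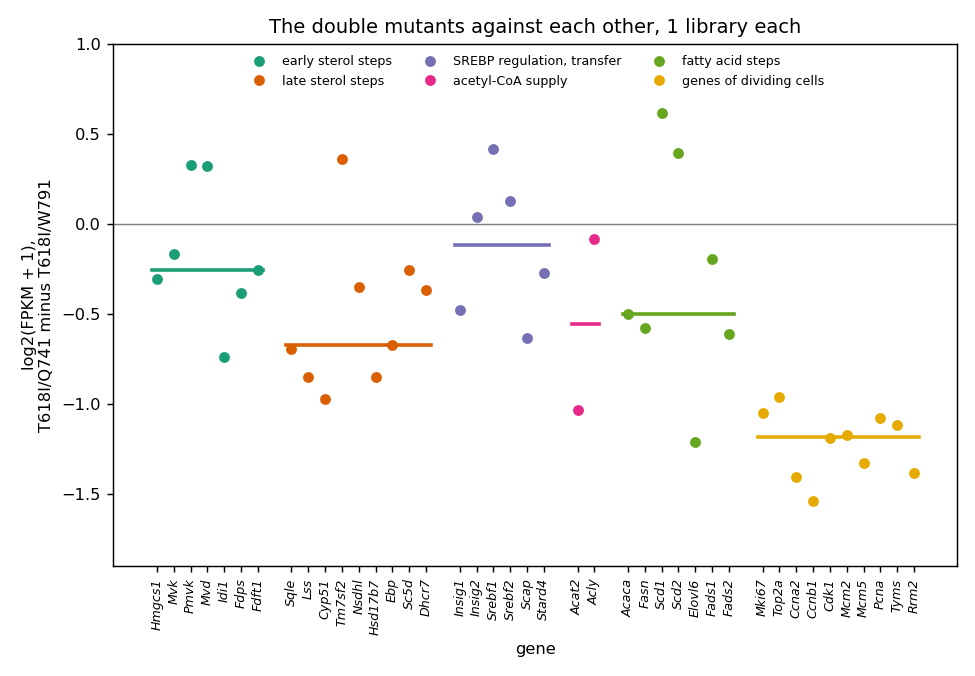
Difference of log2(FPKM + 1) between T618I/Q741 and T618I/W791 for each member by role and for 10 genes of dividing cells, with lines at the medians. Late sterol genes have a median of -0.67 and the dividing-cell genes of -1.18, while Scd1, Scd2, Srebf1 and Tm7sf2 lie above 0.

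Related lists were read beside the members, and limma called 0 of their genes in each class comparison. At an unadjusted p below 0.05 between T618I-containing and truncation libraries there were 3 higher (Vldlr, Me1 and Elovl7) and 3 lower (Erlin1, Nceh1 and Lipa). They were 1 higher and 2 lower of 14 genes of sterol uptake and transport, and 2 higher of 16 other fatty acid genes. In SREBP processing 1 of 8 was lower. By that rule 4.16% of all genes tested were higher and 4.86% lower. The 6 tested genes of other sterol steps had a median class difference of -0.06, with Sc4mol, the sterol methyl oxidase, at 0.14 and Lbr and Cyb5r3 at -0.14 and -0.17. The 8 genes of SREBP processing had a median of -0.13, with Faf2 (-0.05) toward the upper end and Mbtps1 (-0.26) and Erlin1 (-0.40) at the lower. Mbtps1 encodes the protease that first cuts the SREBP factors. In the 14 genes of sterol uptake and transport the median was -0.17, from Vldlr (1.05 ± 0.28, SE; limma, adjusted p = 0.380) and Soat2 (0.32) to Nceh1 (-0.50) and Lipa (-0.51 ± 0.15, SE; limma, adjusted p = 0.417). Vldlr, a lipoprotein receptor, was at 7.47, 4.96 and 5.13 FPKM in the T618I-containing libraries and 3.18, 1.56 and 2.34 with W791, Q741 and vector. Lipa, the lysosomal acid lipase that frees cholesterol from its esters, was at 62.8 to 64.8 FPKM in the T618I-containing libraries and 81.4 to 101 in the others.

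Among 16 other fatty acid genes the median was -0.13, and Me1 (1.26 ± 0.36, SE; limma, adjusted p = 0.402) and Elovl7 (0.99 ± 0.17, SE; limma, adjusted p = 0.199) stood at the upper end. Me1, which encodes malic enzyme, a source of NADPH, was at 3.28 FPKM in T618I, 2.39 in T618I/Q741 and 6.57 in T618I/W791, and at 0.615 to 1.13 in the other libraries. Elovl7, an elongase, was at 3.08 to 3.70 FPKM against 1.02 to 1.47. Both are low in level, and neither passed the adjusted threshold. Fads3 (-0.46) and Ptplad1 (-0.32) were lowest in that list. The 11 genes of the isoprenoid branch that leaves the pathway after Fdps had a median of -0.16, with Pdss2 (0.18) and Dhdds (-0.02) highest and Pdss1 (-0.33) and Fntb (-0.27) lowest. The 17 genes of fatty acid oxidation had a median of -0.02, with Pparg (0.75) and Acadvl (0.32) highest and Echs1 (-0.33) and Acaa1a (-0.29) lowest.

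Some values carry a counting limit. Some 50-base words in the transcripts were also found in other genes. They were 39.1% of the words in Acat2, 30.4% in Acaca, 26.2% in Fdps, 17.7% in Idi1 and 9.38% in Fdft1. The other gene with the most of these words was Acat3, Gm5182, Gm43738, Gm13502 and Gm6781 in the same order. Reads of such words could be split between copies, so the levels of these genes are uncertain to that extent. Mvd, which had the same order of libraries as Fdps, Idi1 and Fdft1, shared 0 such words. The part of shared sequence in the values of Fdps, Idi1 and Fdft1 was not tested.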

How the data were processed

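RNA-seq was measured in 6 libraries of transduced mouse bone marrow cells, 1 per construct. The deposited table pairs gene symbols with 6 columns of values whose header states no unit. They were taken to be FPKM as deposited by the authors, since the columns hold decimals and total 439505 to 492025. The submitters' processing notes name TopHat, Cufflinks and mm10, with versions, annotation and strand use not given in the sources used here. Letters of the titles identified the double-mutant columns.

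Of 23444 rows, 27 with a symbol turned into a date were left out. Values were taken as log2(FPKM + 1), which understates changes of low genes, and the 11188 genes that reached 1 FPKM in 2 or more libraries were tested. Limma 3.58.1 in R 4.3.3 fitted 3 class means to the 6 libraries with a mean-variance trend, leaving 3 residual degrees of freedom, with Benjamini-Hochberg adjustment over all genes tested and a threshold of 0.05. The fit was tested on simulated data, with a spread taken from the W791 and Q741 libraries alone. Each planted change was the same in every T618I-containing library. How the fit behaves at the spread between the T618I-containing libraries was therefore not tested. Depth was approximated with GENCODE M21 transcript lengths from the steps between the low values of 6584 single-transcript genes, and it limits counting error only.

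The members and lists were chosen with earlier results of these data known. Named with all 6 values were members at an unadjusted p below 0.05, members 2-fold apart in a pair that differs by T618I, and members of committed or regulatory steps, and of each related list the 2 highest and 2 lowest class differences. Some genes of the related lists are not reported here, 1 list (efflux and LXR targets) is given in part, and the alternatives tried were other pseudocounts, filters, scalings, designs and sets of libraries.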

Additional observations from a re-analysis of the deposited data

Results flagged for a closer look

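With T618I added, 15 of 31 members had differences of opposite sign over the 2 truncations, which brought them up for a closer look. The same held for 54.7% of all genes tested, so the share among the members, 48.4%, is not particular to them. The values below are the difference of log2(FPKM + 1) on adding T618I to W791 minus that on adding it to Q741. Each rests on 1 library per construct, and the difference was not tested.

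In 11 members the value was lower with Q741 and higher with W791. These were Elovl6 (1.17), Acat2 (1.04), Hsd17b7 (0.94), Cyp51 (0.88), Lss (0.71), Ebp (0.68), Sqle (0.63), Scap (0.51), Acaca (0.40), Sc5d (0.27) and Hmgcs1 (0.24). They hold 6 of the 9 late sterol genes. The direction was the other way in 4 members, Scd1 (-1.12), Tm7sf2 (-0.60), Scd2 (-0.59) and Pmvk (-0.48). Over all genes, 35.0% were lower with Q741 and higher with W791, and 19.7% the other way. The genes of dividing cells had the same split, with a median of -0.74 on adding T618I to Q741 and 0.44 on adding it to W791, and their part in the result was not tested.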

How the results depend on the processing

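No member passed the adjusted threshold under any of the alternatives run, and the lowest adjusted p of a member between T618I-containing and truncation libraries was 0.141. The early sterol median stayed positive, between 0.26 and 0.44, while that of the late genes ranged from -0.06 to 0.25 and that of all members from -0.12 to 0.10. The labels carry no replicate numbers, so libraries were paired by tail only.

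Counts of all genes depended on the design. For T618I-containing against truncation libraries, 20 genes higher and 2 lower became 3 higher with no filter on low values, 75 and 22 with 3 libraries against 3, 83 and 36 with a block for the tail over 3 pairs and 146 and 68 over the 2 truncation pairs, and ranged from 2 (without Q741) to 30 (without T618I/W791) higher and from 0 (without W791 or Q741) to 5 (without T618I/Q741) lower. It was 6 higher without W791 and 11 higher without T618I. Against vector, 15 higher and 3 lower became 6 and 16 with no filter, and ranged from 6 and 0 (without Q741) to 28 and 6 (without T618I/W791), with 9 and 0 without W791 or T618I, while the truncations against vector gave 9 lower with no filter in place of 0. With median-ratio scaling 1 member was 2-fold apart between T618I/W791 and T618I, in place of 0, and 1 between the double mutants, in place of 2.

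Sign changes of the class difference came up in 16 members, all uncalled and at most 0.14 in size in the reported fit, and the cause was not tested. They were Hmgcs1 (0.049) and Insig2 (0.050) in the designs with 3 libraries against 3 and with 3 pairs, and Cyp51 (-0.012) with 2 pairs. With median-ratio scaling they were Hmgcs1 (0.032), Insig2 (0.043), Acat2 (0.050), Acaca (0.013), Scd2 (0.0059) and Elovl6 (0.025), and with a common sum Mvk (-0.020), Sqle (-0.043), Cyp51 (-0.10), Sc5d (-0.060) and Acly (-0.052). Without 1 library, the range crossed 0 in Hmgcs1 (-0.11 to 0.039), Mvk (-0.0037 to 0.17), Sqle (-0.094 to 0.25), Cyp51 (-0.22 to 0.26), Tm7sf2 (-0.23 to 0.033), Ebp (-0.23 to 0.10), Sc5d (-0.017 to 0.11), Insig2 (-0.061 to 0.0082), Scap (-0.26 to 0.060), Acat2 (-0.27 to 0.24), Acaca (-0.16 to 0.088), Fasn (-0.24 to 0.050), Scd2 (-0.17 to 0.066), Elovl6 (-0.32 to 0.29) and Fads2 (-0.29 to 0.086). The high end was without T618I/Q741 for Hmgcs1, Sqle, Cyp51, Ebp, Sc5d, Scap, Acat2, Acaca, Fasn, Elovl6 and Fads2.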

Other observations

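Most of the 7 tested genes of sterol efflux and the LXR receptors, whose products export sterol or respond to it, were higher in T618I/Q741 than in T618I/W791. Their median was 1.46 higher in T618I/Q741 than in T618I/W791, with 6 of 7 genes higher, against 41.9% of all genes. The member median was lower there by 0.35, while Srebf1 (0.41) was higher. Scd1 (0.62) and Scd2 (0.39) were the 2 of 7 fatty acid genes that were higher. Elovl6 (-1.21), Fads2 (-0.61), Fasn (-0.58), Acaca (-0.50) and Fads1 (-0.20) were lower. On adding T618I to W791 the median of the 7 efflux and LXR genes was -1.37, beside -0.00 over all genes. Above 0 were 0 of 7, against 49.7% of all genes. On adding T618I to Q741 their median was 0.36, beside -0.16 over all genes. Above 0 were 5 of 7, against 34.5% of all genes. Abcg1, a sterol exporter, was at 30.0 FPKM in the vector library, at 26.4 and 23.4 in the truncations W791 and Q741, and at 19.4, 28.1 and 9.58 in T618I, T618I/Q741 and T618I/W791. Nr1h3, which encodes LXR alpha, was at 2.42, 2.12, 2.73, 2.12, 1.12 and 1.08 FPKM in the same order, so that the double mutants were alike in it. Lpcat3, a phospholipid enzyme and LXR target, ranged from 45.6 FPKM with vector to 63.4 with T618I. It was the exception between the double mutants, at 45.7 FPKM in T618I/Q741 and 51.0 in T618I/W791. The median class difference of the list was -0.30, and limma called 0 of 7 genes, with 0 also at an unadjusted p below 0.05. Macrophages express many of these genes, and the 6 monocyte and macrophage markers summed to 542 FPKM in the vector library, 469 and 488 in the truncations W791 and Q741, and 354, 325 and 157 in T618I, T618I/Q741 and T618I/W791. The part of that cell type in these values was not tested.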
